A study of Mus musculus and Homo sapiens with 20 samples.

Results

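The lymphoid lineage regulators, a list of 10 genes, were followed through every peak list of a CUT&Tag study of Tet2 and MBD6. The genes were Pax5, Ebf1, Tcf7, Gata3, Bcl11b, Rag1, Rag2, Il7r, Tbx21 and Id2. They were taken by symbol as regulators of lineage programmes that are not yet active in lineage-negative progenitors. The rule held no measured value, but earlier results of these data were known when the list was chosen. The genes are 10 of 21938 protein-coding genes annotated on the mouse genome (mm10), and their human counterparts are 10 of 20033 on hg38. For each gene and library, the measure was the percent of bases lying under at least 1 peak, in the promoter (gene start ± 1 kb) and over the gene span (annotated start to end).

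Lymphocytes arise from haematopoietic progenitors as transcription factors open B cell, T cell or innate lymphoid programmes, and in cells outside these lineages many of the same genes lie under Polycomb marks. Polycomb repressive complex 1 places ubiquitin on a lysine of histone H2A (H2AK119ub), and Polycomb repressive complex 2 methylates a lysine of histone H3 (H3K27me3). Both marks typically sit at CpG-rich promoters of silent developmental regulators, and PR-DUB, a deubiquitinase complex that contains MBD5 or MBD6, removes H2AK119ub. TET2 is a dioxygenase that oxidizes 5-methylcytosine and is often mutated in myeloid malignancy.

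The 20 libraries formed 10 groups of 2. In mouse, H2AK119ub and H3K27me3 were profiled in Tet2 WT and Tet2 KO mouse embryonic stem (mES) cells, and in haematopoietic stem and progenitor cells (HSPCs) of Tet2 WT and Tet2 KO mice aged 6 to 8 weeks, the bone marrow cells that lack lineage markers and carry c-Kit (LK cells). In human, H2AK119ub was profiled in K562, a line from a chronic myelogenous leukaemia, treated with control siRNA (siControl) or with siRNA to MBD6 (siMBD6). CUT&Tag tethers a transposase to an antibody on chromatin, and the values here come from the called peaks, not from read signal. The Tet2-/- mice had been backcrossed to C57BL/6 and included both sexes. The mES WT and KO cells were lines obtained from another laboratory, so cell line and genotype cannot be told apart. HSPCs are a mixture of stem and progenitor cells, and in such bulk samples fewer cells carrying a mark and less mark per cell cannot be told apart. The labels do not say whether replicates came from separate cultures or animals, and p-values then measure only the spread between these libraries.

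The lists held 85121 to 167378 peaks and covered 132.1 to 259.9 Mb. They gave positions without counts, so sequencing depth is unknown. H2AK119ub lists were longer in mES cells (235.1 to 259.9 Mb) than in HSPCs (138.8 to 177.0 Mb), the siMBD6 lists (177.5 and 190.2 Mb) were longer than the siControl lists (132.2 and 132.1 Mb), and replicate 2 of mES KO H3K27me3 covered 149.4 Mb against 188.9 to 232.5 Mb in the other 3 mES lists of that mark. Covered length moves with several differences given here, and its part in them was not tested. For H3K27me3, marker genes differed between the cell types as labelled. Of 12 pluripotency markers, 1 had a promoter at least 50% under H3K27me3 in both libraries of either mES group. In either HSPC group 10 did. Of 15 HSPC markers, 12 did in either mES group, against 7 in HSPC WT and 6 in HSPC KO. Of all genes, 28.3% did in mES WT, 23.4% in mES KO, 29.3% in HSPC WT and 30.4% in HSPC KO. H2AK119ub did not set the cell types apart in this way, with 5 of the 12 pluripotency markers in each of the 4 mouse groups. Of the HSPC markers, 11 and 13 reached 50% in mES WT and KO, against 9 and 11 in HSPC WT and KO. Of all genes, 36.3% and 37.2% did in mES WT and KO, and 35.9% and 46.0% in HSPC WT and KO. Of 10 markers of K562, 2 reached 50% under H2AK119ub in siControl (8.98% of all genes) and 2 in siMBD6 (13.6% of all genes). Among 7 markers of mature lymphoid cells, 0 reached 50% under H3K27me3 in both libraries of either HSPC group, beside 29.3% (WT) and 30.4% (KO) of all genes. A part of mature lymphocytes in the HSPC values was not tested. The files carry no transcript levels, so the loss of Tet2 and MBD6 could not be checked.

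The 10 mouse promoters differ in CpG content, and 5 stretches free of annotated exons are shown, 3 from the genes with the fewest CG and 2 from CpG-richer genes. Those of Tcf7 and Bcl11b, the genes with the most CG, overlap annotated exons and are not shown, and that of Pax5 overlaps one too. The stretches of Gata3 and Id2 are free of annotated exons but are not shown either. They hold 2 CG each, as few as those of Rag2 and Il7r, so the stretches shown overstate the contrast. Each stretch is 200 bases of mm10, from base 250 to base 51 before the annotated gene start. It is read in the direction of the gene, with CG dinucleotides in capitals. The stretch of Ebf1 lies on the plus strand at chr11:44617067-44617266 and holds 11 CG, that of Tbx21 on the minus strand at chr11:97115382-97115581 holds 13, that of Rag1 on the minus strand at chr2:101649552-101649751 holds 1, that of Rag2 on the plus strand at chr2:101624468-101624667 holds 2, and that of Il7r on the minus strand at chr15:9530227-9530426 holds 2. Among all 21938 genes, the median of this stretch is 5, and 89.7% of genes hold at least 1.
Ebf1: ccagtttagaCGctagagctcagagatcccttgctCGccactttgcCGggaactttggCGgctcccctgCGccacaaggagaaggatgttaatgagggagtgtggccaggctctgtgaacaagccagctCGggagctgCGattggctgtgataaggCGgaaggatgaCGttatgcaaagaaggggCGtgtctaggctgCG
Tbx21: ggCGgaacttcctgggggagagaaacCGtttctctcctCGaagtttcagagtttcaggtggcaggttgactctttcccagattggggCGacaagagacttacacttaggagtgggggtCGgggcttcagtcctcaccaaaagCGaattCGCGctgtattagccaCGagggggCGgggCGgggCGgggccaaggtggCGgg
Rag1: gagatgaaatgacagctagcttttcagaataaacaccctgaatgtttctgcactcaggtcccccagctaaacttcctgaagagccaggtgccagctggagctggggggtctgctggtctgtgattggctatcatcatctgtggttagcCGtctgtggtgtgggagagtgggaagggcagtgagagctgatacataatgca
Rag2: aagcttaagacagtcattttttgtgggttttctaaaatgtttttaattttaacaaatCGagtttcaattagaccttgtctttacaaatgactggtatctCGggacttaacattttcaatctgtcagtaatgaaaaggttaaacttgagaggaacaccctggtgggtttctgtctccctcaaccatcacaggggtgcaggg
Il7r: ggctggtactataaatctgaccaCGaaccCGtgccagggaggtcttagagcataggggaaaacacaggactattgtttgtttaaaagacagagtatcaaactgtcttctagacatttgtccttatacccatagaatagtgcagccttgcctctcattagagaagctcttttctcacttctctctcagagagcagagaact

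Over the whole 2-kb promoter window, Il7r had 13 CG, Rag1 19 and Rag2 24, against 56 at Pax5, 63 at Gata3, 68 at Ebf1, 69 at Id2, 128 at Tbx21, 142 at Tcf7 and 158 at Bcl11b. The median over all mouse genes was 61, with quartiles of 22 and 98. In HSPCs, H3K27me3 covered 100% of the promoter of each of the other 7 genes in all 4 libraries and 0% of the promoters of Rag1, Rag2 and Il7r in all 4. In HSPCs, all mouse genes showed the same order by CpG class. The median H3K27me3 promoter coverage in HSPC WT was 0% for the 9494 genes under 50 CG. It was 41.5% for the 7112 genes with 50 or more but under 100, and 57.7% for the 5332 genes with 100 or more. For the same classes the medians were 0%, 25.04% and 25.04% in mES WT, and 0% in each class in mES KO. The class of the gene did not fix the value, however. Bcl11b had the most CG of the 10 and at most 39.6% of its promoter under H2AK119ub in any mouse library, whereas Rag1, with 19 CG, had 56.9% to 64.3% of its promoter under H3K27me3 in the 4 mES libraries.

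**Figure D1:**
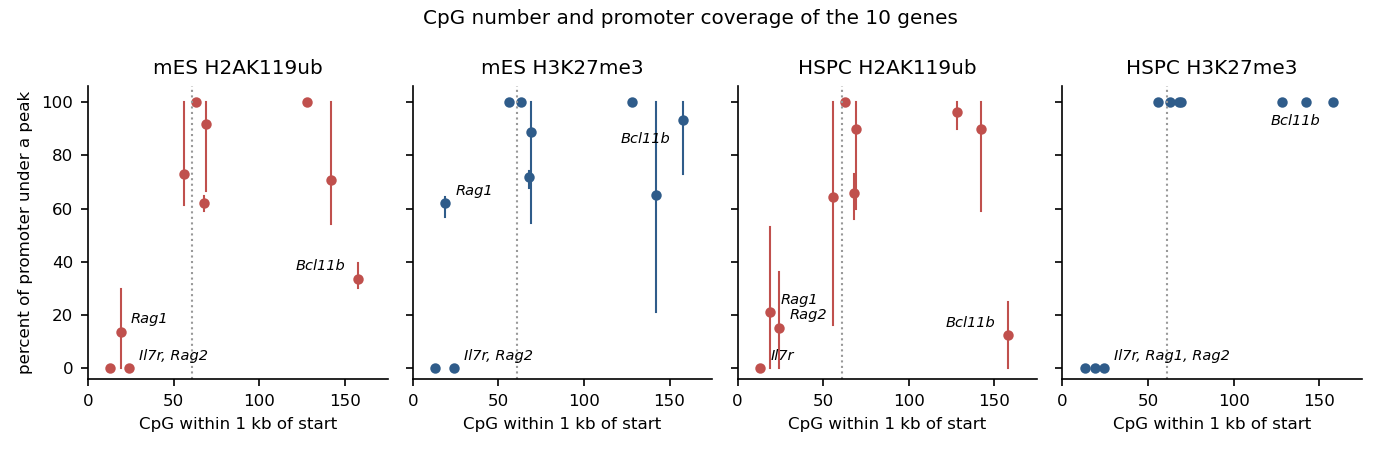
Percent of the promoter (gene start ± 1 kb) under a peak (vertical axis) against the number of CG dinucleotides in that window (horizontal axis) for the 10 genes in mouse. Points are means of 4 libraries (2 WT and 2 KO), lines run from the lowest to the highest library, and the dotted line is the median of all genes, 61. In HSPCs the 7 genes with 56 or more CG stand at 100% H3K27me3 and Il7r, Rag1 and Rag2 at 0%.

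**Figure D2:**
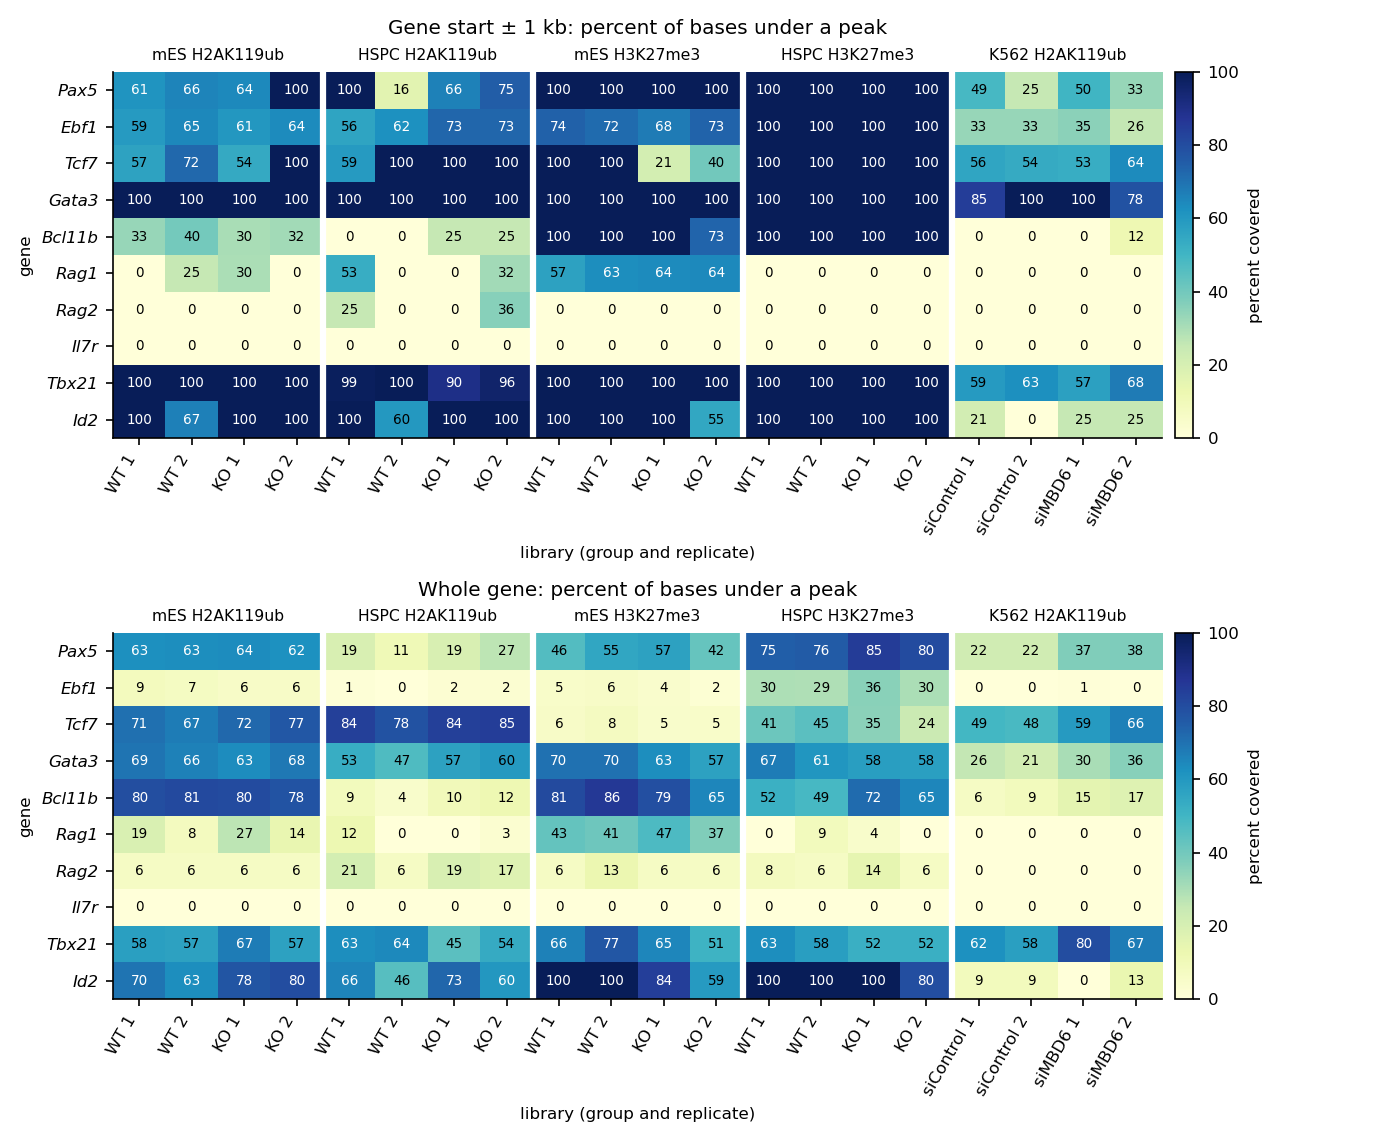
Percent of bases under a peak in each of the 20 libraries (columns, by group and replicate) for the 10 genes (rows), in the promoter (top) and over the gene span (bottom), with the value printed in each cell and human symbols matched to mouse rows. Gata3 is at 100% of the promoter in all 16 mouse libraries, and Il7r is at 0% in both windows in all 20 libraries.

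Pax5 keeps B cells committed to their lineage, and Ebf1 acts before it to specify that lineage. Pax5 (chr4:44524757-44710487, minus strand) is 185.7 kb long, and H3K27me3 covered 100% of its promoter in all 8 mouse libraries of that mark. H2AK119ub at the same window was 61.2% and 65.6% in mES WT, 64.3% and 100% in mES KO, 100% and 16.4% in HSPC WT, and 66.0% and 75.1% in HSPC KO. The 2 HSPC WT libraries therefore spanned the range of all the others, and no order of groups can be read from the H2AK119ub promoter of Pax5. Its alternative starts 6.48 and 7.07 kb into the gene were 100% under H3K27me3 in all 8 libraries, and the start 64.8 kb into the gene was 58.3% to 71.6% covered.

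Ebf1 (chr11:44617317-45008091, plus strand) is 390.8 kb long. Its promoter was 59.1% and 64.8% under H2AK119ub in mES WT, 60.5% and 64.0% in mES KO, 56.2% and 62.3% in HSPC WT, and 72.7% and 72.8% in HSPC KO. H3K27me3 covered 73.9% and 71.8% of it in mES WT, 67.8% and 73.5% in mES KO, and 100% in all 4 HSPC libraries. Both marks thus lay over the start of Ebf1 in all 16 mouse libraries, and only H3K27me3 was complete, in HSPCs.

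Tcf7 encodes TCF1, which with the zinc finger factor GATA3 starts the T cell programme, and Bcl11b acts after them to complete T cell commitment. Gata3 (chr2:9857078-9890034, minus strand) was at 100% of the promoter for both marks in all 16 mouse libraries, at its upstream start and at the start 11.4 kb into the gene alike. Tcf7 (chr11:52252371-52283014, minus strand) had 56.6% and 72.3% of its promoter under H2AK119ub in mES WT, 54.1% and 100% in mES KO, 59.1% and 100% in HSPC WT, and 100% in both HSPC KO libraries. The Bcl11b promoter (gene at chr12:107910403-108003602, minus strand) was 33.2% and 39.6% under H2AK119ub in mES WT, 30.2% and 31.6% in mES KO, 0% in both HSPC WT libraries and 25.04% in both HSPC KO libraries. A single peak of 0.501 kb makes up 25.04% of a promoter window. Peaks of exactly this width were 30.4% to 41.4% of each list, for a reason not stated. A value of 25.04% thus shows 1 called peak and need not be a measured extent. No H2AK119ub peak crossed the start base of Bcl11b in any mouse library, although peaks began 0.169 to 1.46 kb away.

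Rag1 and Rag2 encode the recombinase that cuts antigen receptor genes. They lie tail to tail, 5.75 kb apart, Rag1 at chr2:101638282-101649501 on the minus strand and Rag2 at chr2:101624718-101632529 on the plus strand. H3K27me3 covered 56.9% and 63.1% of the Rag1 promoter in mES WT and 63.8% and 64.3% in mES KO, and 0% in the 4 HSPC libraries. H2AK119ub at Rag1 was patchy, at 0%, 25.04%, 29.9% and 0% in the mES libraries and 52.9%, 0%, 0% and 31.6% in the HSPC libraries, in the order WT 1, WT 2, KO 1, KO 2. The Rag2 promoter was empty of H3K27me3 in all 8 libraries and held H2AK119ub in 2 of 8, HSPC WT replicate 1 (25.04%) and HSPC KO replicate 2 (36.2%). H2AK119ub calls at these CpG-poor starts thus differed between replicates of the same group.

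Il7r encodes the alpha chain of the interleukin-7 receptor, on which early lymphocytes depend. Il7r (chr15:9505788-9530176, minus strand) held no peak of either mark in its promoter or span in any of the 16 mouse libraries, and the human gene held none in the 4 K562 libraries. The nearest peak lay 28.1 to 94.1 kb from its start for H2AK119ub in mES cells, 40.7 to 218.3 kb for H2AK119ub in HSPCs, 28.1 to 560.6 kb for H3K27me3 in mES cells and 389.3 to 458.6 kb for H3K27me3 in HSPCs. Empty genes were common. Both libraries of a mouse group had 0% of the promoter covered in 26.3% to 57.4% of all genes.

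Tbx21 encodes T-bet, a factor of type 1 helper T cells and natural killer cells, and Id2 an inhibitor of E proteins that innate lymphoid cells require. H3K27me3 covered 100% of the Tbx21 promoter (gene at chr11:97098071-97115331, minus strand) in all 8 libraries. H2AK119ub was at 100% in the 4 mES libraries, 98.5% and 100% in HSPC WT, and 90.01% and 95.9% in HSPC KO. The Id2 promoter (gene at chr12:25093799-25097140, minus strand) was at 100% for H3K27me3 in all but mES KO replicate 2 (54.7%), and at 100% for H2AK119ub in all but mES WT replicate 2 (66.7%) and HSPC WT replicate 2 (59.8%). The annotated start used for Id2 lies upstream of its other coding starts, and windows around those, 1.05 kb into the gene, were 76.1% to 100% covered in the mouse libraries.

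Set against all genes, the 10 stood high for H3K27me3. At least 50% of the promoter was covered in both libraries for 8 of 10 in mES WT (28.3% of all genes), 7 in mES KO (23.4%), 7 in HSPC WT (29.3%) and 7 in HSPC KO (30.4%). For H2AK119ub the counts were 6 in mES WT (36.3% of all genes), 6 in mES KO (37.2%), 5 in HSPC WT (35.9%) and 6 in HSPC KO (46.0%). In K562 they were 3 in siControl (8.98% of all genes) and 3 in siMBD6 (13.6%). The wider lymphoid lists described below stood lower for H3K27me3. In HSPC WT, 7 of 20 B cell, 5 of 22 T cell and 5 of 14 innate lymphoid genes reached 50% in both libraries, beside 29.3% of all genes. In mES WT the counts were 6, 10 and 7, beside 28.3%.

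The comparison of HSPCs with mES cells asks how the marks over lymphoid genes differ between a blood progenitor and a pluripotent cell. It set 4 libraries against 4 for each mark, WT and KO together, and so shares its libraries with the KO comparisons that follow. H2AK119ub covered most of Bcl11b and Pax5 in mES cells and little of them in HSPCs, whereas H3K27me3 lay over both genes in both cell types and covered more of Pax5, Ebf1 and Tcf7 in HSPCs. H3K27me3 over Rag1 was lower in HSPCs. A gene was called separated where every library of one group lay above every library of the other. The two-sided exact permutation test over 70 assignments then gives p = 0.0286, its smallest value, and with Benjamini-Hochberg adjustment over all genes with any covered base 0 genes reached 0.05, although 5295 and 9095 genes for H2AK119ub and 6912 and 9748 for H3K27me3 had an unadjusted p under 0.05 in promoter and span.

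**Figure D3:**
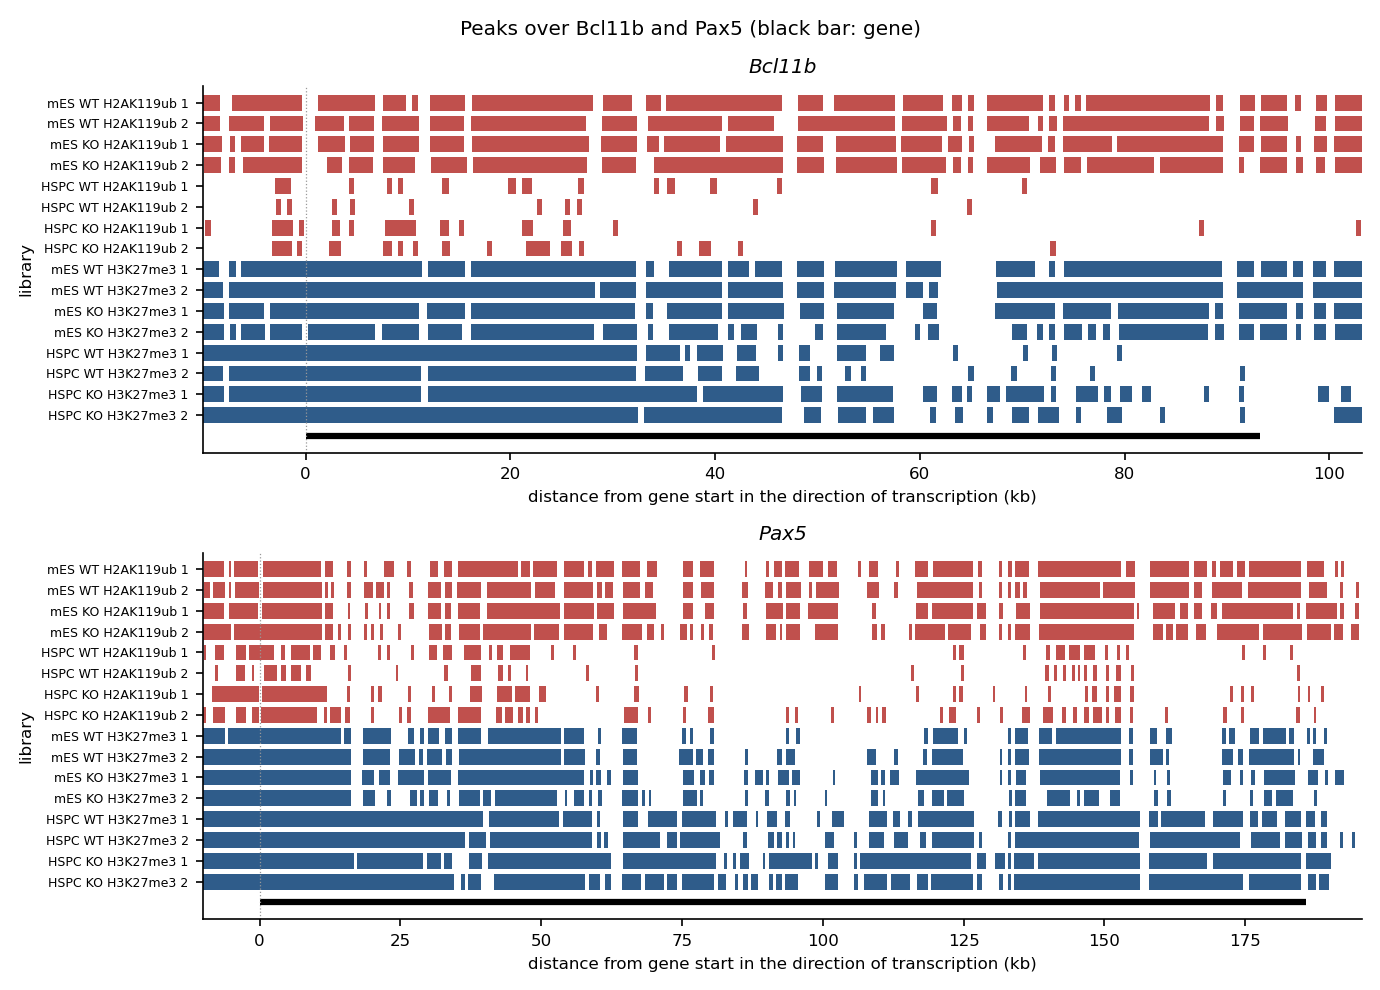
Peaks over Bcl11b (top) and Pax5 (bottom) in the 16 mouse libraries, 1 library per line, by distance in kb from the gene start in the direction of transcription, with H2AK119ub in red, H3K27me3 in blue and the gene as a black bar. H2AK119ub covers most of both genes in mES cells, in separate peaks, and is sparse in HSPCs, and H3K27me3 over Bcl11b in HSPCs thins out in the last 50% of the gene.

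Bcl11b showed the largest difference of the 10. H2AK119ub covered 79.6% and 80.9% of the gene span in mES WT, 80.3% and 78.0% in mES KO, 8.66% and 4.30% in HSPC WT, and 9.72% and 11.7% in HSPC KO. The mean was 79.7% ± 1.25 in mES cells and 8.60% ± 3.14 in HSPCs (SD, n = 4 each), a difference of -71.1 percentage points, with adjusted p = 0.0585 by the exact permutation test. The widest H2AK119ub peak in the gene was 11.4 to 14.2 kb long in mES cells and 0.501 to 3.01 kb long in HSPCs. The promoter was separated as well (adjusted p = 0.0951 by the exact permutation test). H3K27me3 did not separate the cell types. It covered 80.8% and 86.0% of the span in mES WT, 79.2% and 65.2% in mES KO, 51.9% and 48.5% in HSPC WT, and 71.9% and 65.1% in HSPC KO, with overlapping ranges. Within the gene, the first 50% was 85.7% to 98.5% under H3K27me3 in the HSPC libraries and the last 50% 11.4% to 46.6%, compared with 79.1% to 95.6% and 51.3% to 76.4% in the mES libraries.

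Pax5 also had lower H2AK119ub in HSPCs, and its H3K27me3 was higher. H2AK119ub covered 62.5% and 63.2% of the span in mES WT, 63.6% and 62.2% in mES KO, 19.2% and 10.9% in HSPC WT, and 19.5% and 26.8% in HSPC KO. The means were 62.9% ± 0.643 and 19.1% ± 6.52 (SD, n = 4 each). H3K27me3 covered 46.2% and 55.2% in mES WT, 56.8% and 42.5% in mES KO, 74.8% and 75.7% in HSPC WT, and 84.8% and 80.2% in HSPC KO. Every HSPC library lay above every mES library (adjusted p = 0.0537 by the exact permutation test). The H3K27me3 peak over the Pax5 start was 20.02 to 31.2 kb long in mES cells and 44.01 to 64.8 kb in HSPCs. Counting only bases covered in both libraries of a group, 37.1% of Pax5 carried both marks in mES WT and 7.74% in HSPC WT, and H3K27me3 stood alone on 7.24% and 59.9%.

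Ebf1 had little of either mark beyond its start in mES cells. H3K27me3 covered 4.80% and 5.75% of the span in mES WT, 4.20% and 1.82% in mES KO, 29.5% and 29.2% in HSPC WT, and 35.9% and 29.9% in HSPC KO, in 6 to 19 peaks per mES library and 68 to 79 per HSPC library. The peak over the start was 2.48 to 7.83 kb long in mES cells and 18.2 to 28.8 kb in HSPCs. H2AK119ub lay in the other direction at a lower level, covering 0.320% to 2.402% of the span in HSPCs beside 5.79% to 8.50% in mES cells. Ebf1 was separated between the cell types for both marks.

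Tcf7 was higher in HSPCs for both marks. H3K27me3 covered 5.64% and 7.55% of the span in mES WT, 4.52% and 4.89% in mES KO, 41.2% and 44.9% in HSPC WT, and 35.4% and 23.6% in HSPC KO. H2AK119ub covered 78.4% to 84.6% in HSPCs, above the 67.3% to 76.9% of mES cells. In HSPC WT, 48.4% of Tcf7 carried H2AK119ub alone, 26.3% both marks and 6.33% H3K27me3 alone, the reverse of Pax5. Over Gata3, H2AK119ub was lower in HSPCs (47.1% to 59.7%) than in mES cells (63.5% to 69.2%), while H3K27me3 ranges overlapped at 57.7% to 67.2% and 56.7% to 70.03%.

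Rag1 was lower in HSPCs. Its span was 42.7% and 40.9% under H3K27me3 in mES WT, 47.3% and 37.2% in mES KO, 0% and 8.93% in HSPC WT, and 4.47% and 0% in HSPC KO. A peak of 1.61 to 1.79 kb lay over its start in all 4 mES libraries, and no H3K27me3 peak came nearer than 3.09 kb in HSPCs. Span coverage of Rag2, Tbx21 and Id2 overlapped between the cell types for both marks.

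**Figure D4:**
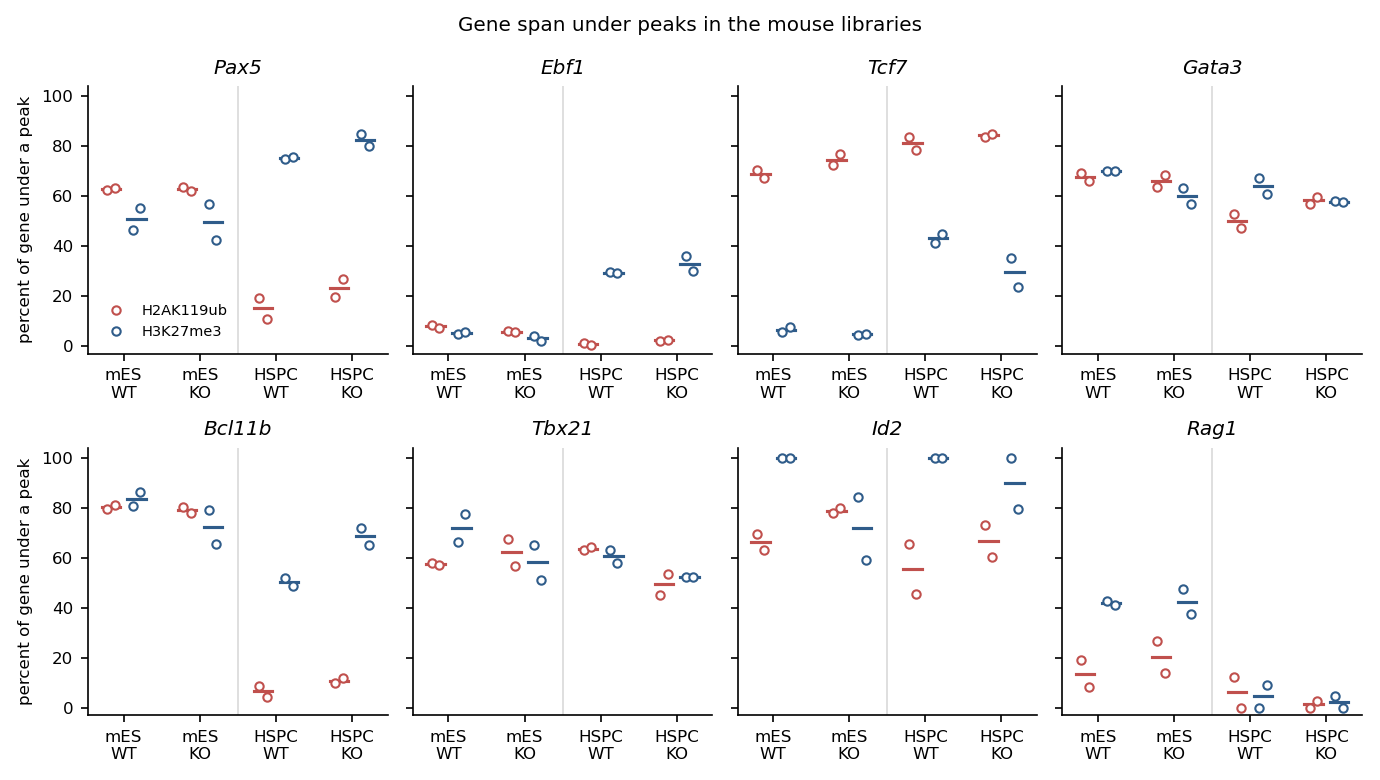
Percent of the gene span under H2AK119ub (red) and H3K27me3 (blue) peaks for 8 genes in the mouse groups, with 1 circle per library and a line at the mean of 2. Red circles lie lower in HSPCs than in mES cells in the Pax5 and Bcl11b panels, and blue circles lie higher in the Pax5, Ebf1 and Tcf7 panels.

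Counted over the 10 genes, the H2AK119ub promoter was higher in HSPCs in 0 genes (15.6% of all genes) and lower in 1, Bcl11b (8.58% of all genes). Over the span, H2AK119ub was higher in 1 gene, Tcf7 (20.9% of all genes), and lower in 4, Gata3, Pax5, Ebf1 and Bcl11b (20.5% of all genes). The H3K27me3 promoter was higher in 1, Ebf1 (22.8% of all genes), and lower in 1, Rag1 (8.70% of all genes). Over the span, H3K27me3 was higher in 3, Pax5, Ebf1 and Tcf7 (27.1% of all genes), and lower in 1, Rag1 (17.3% of all genes). The median difference of the 10 for the H2AK119ub span was -8.39 percentage points, against 0 over all genes. H2AK119ub lists were also shorter in HSPCs, as given above, and cell type cannot be told apart from list length. With all lists held to the same number of peaks, taken in file order, the differences were -71.7 points at Bcl11b and -44.01 at Pax5. With the whole lists they were -71.1 and -43.8. Here and below, this cut evens the number of peaks but not their width, so covered length can still differ.

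The Tet2 KO comparison in mES cells asks whether loss of TET2 alters the marks. Tcf7 stood out for H3K27me3, whose promoter coverage was 100% in both WT libraries and 21.0% and 39.98% in the KO libraries. An H3K27me3 peak of 5.60 to 6.19 kb lay over the Tcf7 start in both WT libraries and in neither KO library. The promoter difference of -69.5 percentage points in the means had p = 0.333 by the two-sided exact permutation test, the smallest that 2 libraries against 2 allow, so that none of the 2-against-2 comparisons could pass 0.05. H2AK119ub over the Tcf7 span was higher in the same KO cells, at 72.3% and 76.9% against 70.5% and 67.3% in WT.

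Of the 10 genes, the H3K27me3 promoter was separated upward in 1, Rag1 (1.90% of all genes), and downward in 1, Tcf7 (16.0% of all genes). The H3K27me3 span was higher in KO in 0 genes (5.37% of all genes) and lower in 6, Ebf1, Tcf7, Gata3, Bcl11b, Tbx21 and Id2 (21.5% of all genes). Id2 had the largest of these differences, at 100% in both WT libraries and 84.3% and 59.2% in KO. Gata3 stood at 70.03% and 69.9% in WT against 63.3% and 56.7% in KO, and Tbx21 at 66.2% and 77.3% against 65.0% and 51.1%. The 6 differences ran from -28.3 to -1.88 percentage points, and the median over the 10 genes was -2.74, beside 0 over all genes. In 5 of the 6, Tcf7 aside, the lowest value was in KO replicate 2, which also had the shortest list. Without that library, 6 genes were lower and 2 higher in KO.

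H2AK119ub in the same cells had fewer separated genes. Its promoter was higher in 0 genes (10.2% of all genes) and lower in 1, Bcl11b (8.91% of all genes), with a difference of -5.50 percentage points in the means. Each omission of 1 of the 4 libraries gave 3 separated promoters, and the span count was 5 without WT replicate 1, 6 without KO replicate 1 and 7 without KO replicate 2, since a group left with 1 library separates more easily. Its span was higher in 2, Tcf7 and Id2 (14.8% of all genes), and lower in 1, Ebf1 (15.4% of all genes). Id2 stood at 69.5% and 63.1% in WT and 77.6% and 79.8% in KO. Ebf1 stood at 8.50% and 7.28% in WT and 5.82% and 5.79% in KO. Id2 and Tcf7 thus had more of their length under H2AK119ub and less under H3K27me3 in KO. At Tcf7 the nearest WT and KO libraries lay close together, with H2AK119ub at 70.5% and 72.3% and H3K27me3 at 5.64% and 4.89%. In Id2 the bases under H2AK119ub alone, counting only bases covered in both libraries, were 0% in WT and 19.2% in KO. The WT value could only be 0%, since H3K27me3 covered all of Id2 in both WT libraries. The KO value was set by replicate 2 of H3K27me3, the shortest mES list of that mark. It covered 59.2% of Id2, beside 84.3% in replicate 1.

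In HSPCs, promoter H3K27me3 over the 10 genes was the same in all 4 libraries. It stood at 100% or 0% throughout, with 0 genes higher (9.68% of all genes) and 0 lower (8.79% of all genes). A fully covered or empty window cannot show a difference in the amount of mark. Over the gene span, H3K27me3 was higher in KO in 3 genes, Pax5, Ebf1 and Bcl11b (14.9% of all genes), and lower in 3, Tcf7, Gata3 and Tbx21 (18.4% of all genes).

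Bcl11b had the largest of these differences, 18.3 percentage points in the means, with 51.9% and 48.5% in WT beside 71.9% and 65.1% in KO. It lay mostly late in the gene, where the last 50% was 15.49% and 11.4% covered in WT and 46.6% and 31.7% in KO, while the first 50% was 88.2% and 85.7% in WT and 97.2% and 98.5% in KO. Pax5 stood at 74.8% and 75.7% in WT and 84.8% and 80.2% in KO. Ebf1 stood at 29.5% and 29.2% in WT, and its KO libraries at 35.9% and 29.9% lay above, replicate 2 only just.

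Tcf7 had the largest difference downward, with 41.2% and 44.9% in WT and 35.4% and 23.6% in KO, a difference of -13.6 points in the means. Gata3 stood at 67.2% and 60.8% in WT and 57.8% and 57.7% in KO, and Tbx21 at 63.0% and 57.9% in WT beside 52.1% and 52.2% in KO. Over the 10 genes the median was -1.12 percentage points. The KO lists of this mark were longer (184.9 and 200.9 Mb) than the WT lists (164.6 and 167.4 Mb). With equal numbers of peaks in file order, the differences were 7.12 points at Pax5, 2.34 at Ebf1 and 18.005 at Bcl11b, and -13.6 at Tcf7, -6.27 at Gata3 and -9.71 at Tbx21. The separated spans then fell to 2 higher, in place of 3, and stayed at 3 lower.

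H2AK119ub in HSPCs was more often higher in KO. The promoter was higher in 2 genes, Ebf1 and Bcl11b (18.8% of all genes), and lower in 1, Tbx21 (5.05% of all genes). The span was higher in 5, Pax5, Ebf1, Tcf7, Gata3 and Bcl11b (19.0% of all genes), and lower in 1, Tbx21 (9.40% of all genes). Gata3 stood at 52.8% and 47.1% in WT and 56.9% and 59.7% in KO. Tbx21 stood at 63.1% and 64.1% in WT and 44.8% and 53.6% in KO, a difference of -14.4 points in the means, and of the 10 it alone was separated downward for both marks over its span. In Pax5, Ebf1, Tcf7, Gata3 and Bcl11b the lowest H2AK119ub value belonged to WT replicate 2, whose list was the shortest of its mark in HSPCs (138.8 Mb). WT replicate 1 lay next to KO replicate 1 in Pax5 (19.2% and 19.5%) and Tcf7 (83.7% and 83.8%). Without WT replicate 2, the span of 5 genes was higher and of 3 lower in KO, and the count of separated promoters was 6, against 5 without WT replicate 1.

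The K562 comparison asks whether knockdown of MBD6 alters H2AK119ub. Over the gene span, 6 of the 10 genes were higher in both siMBD6 libraries, PAX5, EBF1, TCF7, GATA3, BCL11B and TBX21, and 0 were lower. The same was true of 34.6% of all genes, and 1.28% were lower. PAX5, which lies at chr9:36833269-37034268 on the minus strand, stood at 22.0% and 22.1% in siControl and 37.5% in both siMBD6 libraries, with a replicate spread of 0.108 and 0.0566 points (SD, n = 2 each). TCF7 stood at 49.3% and 48.4% in siControl and 59.0% and 66.4% in siMBD6, and TBX21 at 62.2% and 57.7% against 79.9% and 67.3%. GATA3 stood at 25.7% and 21.4% in siControl and 30.3% and 36.04% in siMBD6, and BCL11B at 6.49% and 8.97% against 15.3% and 17.4%. EBF1 was at 0% in both siControl libraries and 0.616% and 0.372% in siMBD6. The median difference over the 10 was 4.55 points, against 0.285 over all genes. In each of the 6, p was 0.333 by the two-sided exact permutation test. The siMBD6 lists were longer, and knockdown cannot be told apart from list length. With all lists held to the same number of peaks, in file order, 6 of the 10 were higher and 0 lower. The differences were then 14.1 points at PAX5 and 13.2 at TCF7, beside 15.4 and 13.9 with the whole lists. Peaks were wider in siMBD6 (medians of 798 and 810 bp) than in siControl (744 and 739 bp). An equal number of peaks thus does not equalise covered length, and the cut cannot part knockdown from list length.

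Few promoters in K562 were separated. ID2 was higher, at 25.04% in both siMBD6 libraries against 21.4% and 0% in siControl, where 13.4% of all genes were higher and 2.20% lower, and 0 of the 10 were lower. At ID2, 25.04% is the share of a single peak of 0.501 kb, and the nearest peak lay 0.438 and 0.417 kb from the start in siMBD6. In siControl replicate 1, at 21.4%, it lay 0.573 kb away, closer to the edge of the window. The count of separated promoters was 2 without siControl replicate 1, 6 without siMBD6 replicate 1 and 5 without siMBD6 replicate 2. GATA3 was at 84.6% and 100% in siControl and 100% and 78.5% in siMBD6, and TCF7 at 55.7% and 53.9% against 52.8% and 63.7%. RAG1, RAG2 and IL7R held no peak in promoter or span in any of the 4 libraries, although the RAG1 promoter had 108 CG in human, above the median of 90. RAG2 had 12 and IL7R 11.

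**Figure D5:**
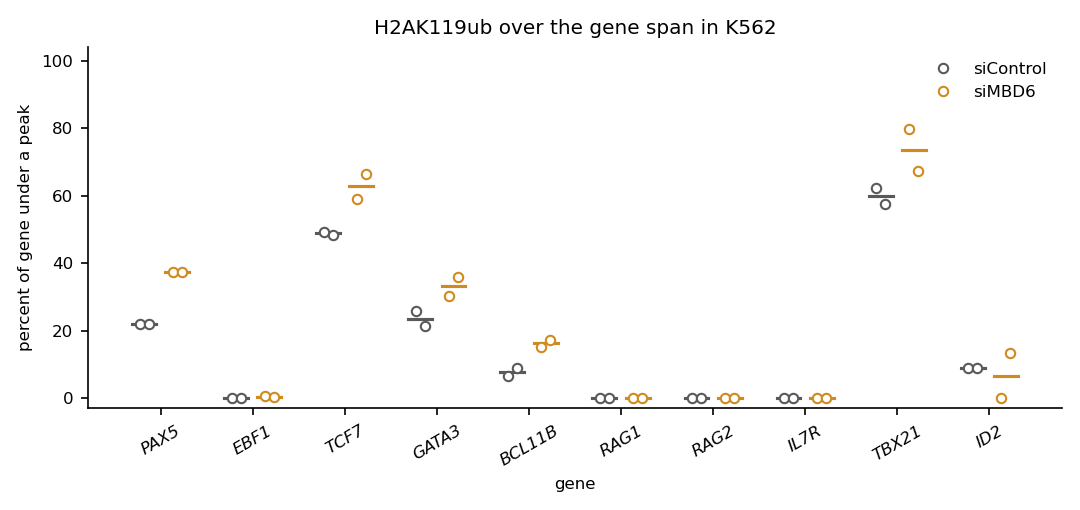
Percent of the gene span under H2AK119ub peaks in K562 for the 10 genes, with 1 circle per library and a line at the mean of 2, in siControl (grey) and siMBD6 (orange). Both siMBD6 circles lie above both siControl circles for 6 genes, from EBF1 near 0% to TBX21 at 67.3% and 79.9%.

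Wider lists of 20 B cell, 22 T cell and 14 innate lymphoid genes held lineage markers, receptors, signalling genes and other factors of these cells, without the 10 genes themselves. In HSPCs, the H3K27me3 span in KO was higher in 0 and lower in 10 of the 20 B cell genes, higher in 4 and lower in 4 of the 22 T cell genes, and higher in 1 and lower in 4 of the 14 innate genes, where 14.9% of all genes were higher and 18.4% lower. Their median differences were -2.30, -0.0524 and 0 percentage points, beside 0 over all genes. In mES cells, the H3K27me3 span in KO was lower in 10 and higher in 1 of the T cell genes, with a median of -5.35, lower in 3 and higher in 3 of the B cell genes, and lower in 1 and higher in 1 of the innate genes, both with a median of 0, where 21.5% of all genes were lower and 5.37% higher. In K562, the H2AK119ub span was higher with siMBD6 in 12 of 20 B cell, 12 of 22 T cell and 6 of 14 innate genes and lower in 0 of each list, where 34.6% of all genes were higher and 1.28% lower.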

How the data were processed

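The 20 CUT&Tag libraries and their groups were taken from the sample labels, with 2 libraries per group. The authors' steps, as the labels and methods name them, were trimming (Trimmomatic 0.39), alignment to mm10 or hg38 and to a Drosophila spike-in genome (Bowtie2 2.4.1), removal of duplicates and broad peak calling (MACS2). HOMER 4.9 is also named. The deposited lists hold peak positions only, 1 list per library, with no score, count or signal, so they carry no spike-in scaling, and depth and its counting error are unknown. What the order of the peaks ranks is not stated.

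Peaks were intersected with protein-coding genes of GENCODE vM21 (mouse) and v44 (human), whose builds match the lists, and the percent of bases under at least 1 peak was computed per window (Python 3.11.15, pandas 2.3.3, numpy 2.4.6, figures by matplotlib 3.10.9). The steps were tested on simulated data. Groups were called separated where every library of one lay above every library of the other. Exact permutation tests were two-sided, over 6 assignments of 4 libraries or 70 of 8, with Benjamini-Hochberg adjustment over all genes holding any covered base. The members, the marker lists and the wider lists were chosen with earlier results of these data known. All 10 members were named; of the wider lists, the 2 genes with the largest mean promoter difference among those separated between HSPCs and mES cells. Alternatives were peaks of at least 1 kb, peaks within 1 kb joined, promoters of 2 kb on each side, the most covered transcript start, an equal number of peaks, replicate blocks and the omission of each library. A separation of at least 5 percentage points and a crossed pairing were added after seeing the data. The study's filter on peaks shared by replicates had not been applied to these lists.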

Additional observations from a re-analysis of the deposited data

Results flagged for a closer look

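Tet2 loss went with opposite separated directions in mES cells and HSPCs in 4 values, and the difference between the cell types was not tested in any of them. Bcl11b promoter H2AK119ub was lower in KO mES cells and higher in KO HSPCs, and the HSPC difference exceeded the mES difference by 30.5 percentage points. Bcl11b span H3K27me3 had the same directions, and the gap was 29.5 points. Ebf1 span H3K27me3 did too, with a gap of 5.82 points, and Ebf1 span H2AK119ub with a gap of 3.64 points. For H2AK119ub, the Bcl11b promoter was 25.04% covered in both HSPC KO libraries, the share of a single peak of 0.501 kb. The nearest peaks in HSPC WT lay 1.459 and 1.315 kb from the start. In mES cells the closest libraries of the 2 genotypes stood at 33.2% (WT) and 31.6% (KO), and this separation was lost when 5 percentage points were required. The mES side of both H3K27me3 values includes KO replicate 2, the shortest list of that mark. Without that library the mES difference was -4.21 points at Bcl11b and -1.08 at Ebf1, beside -11.2 and -2.27 with it, and with equal numbers of peaks in file order it was -11.2 and -2.20. The HSPC differences at equal numbers were 18.005 and 2.34, where 2 of the 10 genes were separated upward in place of 3.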

How the results depend on the processing

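The counts of separated genes are small, and single libraries move several of them. Replicate numbers did not pair the samples: deviations of same-numbered libraries correlated by 0.0171, -0.245, -0.00809, 0.0105 and 0.0387 in the 5 treatment comparisons. With a replicate block the count was 2 in place of 1 for the mES H2AK119ub promoter and 2 in place of 1 for the K562 promoter, and stayed within 1.5 times elsewhere. For mES H3K27me3 the crossed block gave 3 promoters and 6 spans, beside 2 and 6.

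Requiring groups to lie 5 percentage points apart left 0 mES H2AK119ub promoters (of 1), 1 span (of 3), 1 mES H3K27me3 promoter (of 2), 2 spans (of 6), 1 HSPC H2AK119ub span (of 6), 3 HSPC H3K27me3 spans (of 6), 0 K562 promoters (of 1) and 2 H2AK119ub spans between HSPCs and mES cells (of 5). Joining peaks within 1 kb gave 5 mES H2AK119ub spans (of 3), 0 H2AK119ub promoters between the cell types (of 1) and 1 H3K27me3 promoter (of 2), and turned Tbx21 promoter H2AK119ub in HSPCs to 0.750 points. The most covered transcript start gave 2 mES H2AK119ub promoters (of 1) and 0 in K562 (of 1), and turned the ID2 promoter difference to -6.12 points. Peaks of at least 1 kb left 0 K562 promoters, and a promoter of 2 kb on each side gave 2 H2AK119ub promoters between the cell types. The causes were not tested.

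Leaving out 1 library at a time gave 3 to 3 mES H2AK119ub promoters whichever library was left out, 4 to 7 spans (7 without KO replicate 2, 6 without KO replicate 1 and 5 without WT replicate 1), 2 to 4 mES H3K27me3 promoters (4 without KO replicate 1), 3 to 6 HSPC H2AK119ub promoters (6 without WT replicate 2, 5 without WT replicate 1), 1 to 6 K562 promoters (6 without siMBD6 replicate 1, 5 without replicate 2, 2 without siControl replicate 1) and 1 to 2 H2AK119ub promoters between the cell types (2 without HSPC WT replicate 2). A group left with 1 library separates more easily, by construction. Of the differences of single genes, 1229 stayed within 1 SD or on the same side, 49 moved further and 2 changed sign. With 2 libraries per group and no read counts, small differences cannot be told from peak calling at unknown depth.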

Other observations

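Among the wider lymphoid lists, some promoters differed widely between the 2 mouse cell types (means of 4 libraries each, SD in parentheses). Those named are at most 2 per list and mark, with the largest mean difference among the separated promoters. For H3K27me3, 13 of 20 B cell, 11 of 22 T cell and 6 of 14 innate promoters were not separated. For H2AK119ub, 17, 17 and 13 were not. Cd2, a surface adhesion molecule of T cells, and Hes1, a Notch target, were at 0% H3K27me3 in mES cells and 100% in HSPCs, in all 4 libraries each. Hes1 also had more H2AK119ub, 24.3% (5.03) in mES cells and 100% (0) in HSPCs. Spib, an Ets factor of B cells, stood at 0% and 67.3% (31.5) H3K27me3. In the other direction, Ikzf1, which encodes the lymphoid factor Ikaros, stood at 94.3% (11.4) H3K27me3 in mES cells and 28.3% (3.75) in HSPCs, and Prf1, which encodes perforin, at 100% (0) and 6.26% (12.5). Rora, a factor of innate lymphoid cells, was at 37.6% (8.79) and 100% (0).

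H2AK119ub at the promoter of Zap70, a kinase of T cell receptor signalling, was 100% (0) in mES cells and 21.7% (13.7) in HSPCs. At Tcf3, which encodes E proteins, it was 33.0% (15.9) and 98.3% (2.01), at Igll1, a surrogate light chain gene, 6.26% (12.5) and 59.5% (18.9), and at Gzmb, which encodes granzyme B, 59.0% (8.53) and 7.27% (11.997). Each of these genes was separated between the cell types, as were 22.8% of all genes upward and 8.70% downward for promoter H3K27me3 and 15.6% and 8.58% for H2AK119ub, and none passed an adjusted p of 0.05 in the exact permutation test.

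A site 4.2 kb after the start of Rag2 lay under a peak in 15 of the 16 mouse libraries, of both marks, both cell types and both genotypes, HSPC WT H3K27me3 replicate 1 being the exception. In 7 of the 8 mES libraries it was the only peak in Rag2, 0.501 kb wide, and made up the 6.41% of the span covered there.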
